A study of Rattus norvegicus with 12 samples.

Results

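The lysosomal cathepsins described here were 8 genes, Ctsa, Ctsb, Ctsc, Ctsd, Ctsh, Ctsk, Ctsl and Ctsz, among the 15154 gene symbols that the probes of a 1-colour Agilent rat array could be given. They were chosen by name: every gene probe whose accession maps to 1 of these symbols was taken. The rule used no measured value, but earlier results of these data were known when the genes were chosen. Each gene had 1 probe, printed as 2 spots. RNA came from whole L6 dorsal root ganglia, which hold the cell bodies of the sensory neurons of that spinal nerve, taken from male Fischer 344 rats, an inbred strain. The group young_AL was 6 months old and ate ad libitum, and old_AL was 25 to 28 months old and also ate ad libitum. The rats of old_CR, of that same old age of 25 to 28 months, got food on 3 days a week from the age of 6 weeks, about 40% caloric restriction. Each group had 4 arrays, and the design text gives 4 rats a group, but no label ties an array to an animal, so p-values measure the spread between these arrays, which may be in part technical. A level mixes all cells of the ganglion: a change in the number of cells of a type and a change in RNA per cell cannot be told apart.

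Cathepsins are proteases that work mainly in the acidic interior of lysosomes and late endosomes, where they break down proteins brought in by endocytosis or autophagy. They are made as inactive precursors, carried to the lysosome largely through mannose 6-phosphate receptors, and activated there by removal of a propeptide. Neurons, satellite glia, Schwann cells and macrophages of the ganglion all hold lysosomes, and macrophages are especially rich in several cathepsins. Ctsb and Ctsl are broadly expressed cysteine proteases, Ctsh, Ctsc and Ctsz are cysteine enzymes that trim chain ends, Ctsk is the collagen-degrading cysteine protease known from osteoclasts, Ctsd is an aspartic protease, and Ctsa is a serine carboxypeptidase that also protects neuraminidase 1 and beta-galactosidase in a complex.

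RefSeq's promoter table, on build GRCr8, held 7 of the 8 genes and did not list Ctsb. The 250 bases before the gene start are shown for Ctsa and Ctsz, the 2 cathepsins that passed a test in these data, and for Ctsd, in which a CACGTG was found. Capitals mark CACGTG, the core of the element bound by TFEB, a transcription factor of lysosomal genes, and GGGCGG, the core of a GC box, on either strand (CCGCCC is GGGCGG on the other strand). Ctsa lies on the plus strand at chr3:173988193-173988442, Ctsd on the minus strand at chr1:206968822-206969071, and Ctsz on the minus strand at chr3:183653848-183654097; each is written 5′ to 3′ in the gene's own direction.
Ctsa: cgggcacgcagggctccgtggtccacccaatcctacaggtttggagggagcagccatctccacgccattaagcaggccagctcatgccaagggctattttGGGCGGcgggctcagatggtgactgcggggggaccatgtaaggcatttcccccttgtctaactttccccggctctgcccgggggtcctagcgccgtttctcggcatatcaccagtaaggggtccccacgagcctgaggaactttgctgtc
Ctsd: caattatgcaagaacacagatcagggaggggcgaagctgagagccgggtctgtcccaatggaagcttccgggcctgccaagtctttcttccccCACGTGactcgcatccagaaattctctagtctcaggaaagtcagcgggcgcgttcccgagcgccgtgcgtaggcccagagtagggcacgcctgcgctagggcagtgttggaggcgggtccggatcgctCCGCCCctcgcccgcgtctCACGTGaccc
Ctsz: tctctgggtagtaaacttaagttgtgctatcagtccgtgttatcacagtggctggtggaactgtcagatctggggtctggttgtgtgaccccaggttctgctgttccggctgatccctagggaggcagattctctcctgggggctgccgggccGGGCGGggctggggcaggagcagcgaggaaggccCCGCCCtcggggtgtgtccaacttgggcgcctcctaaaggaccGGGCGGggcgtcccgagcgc

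CACGTG stood 2 times before Ctsd, with first bases 157 and 10 bases before the start. Both lay within the longer GTCACGTG on the other strand, which reads CACGTGAC in the sequence as printed. Neither CACGTG nor GTCACGTG was in the windows of Ctsa, Ctsc, Ctsh, Ctsk, Ctsl or Ctsz. Of all 33469 promoters in the table, 5.59% held CACGTG and 1.63% held GTCACGTG in a window of the same length. GGGCGG was found 3 times each before Ctsl and Ctsz and 1 time each before Ctsa, Ctsc and Ctsd, with 30.5% of all promoters holding it. TATAAA, the TATA box sequence, was in none of the 7 windows and in 12.9% of all. These are matches of letters and were not tested as sites. Of the genes shown, Ctsa rose in old_AL and Ctsz fell in old_CR, both against young_AL, and Ctsd passed in no comparison.

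A value below is the log2 of the processed spot intensity minus the log2 of the array's 75th percentile, so 0 is that percentile and a difference of 1 is a doubling. The probe was well above the local background on all 12 arrays for each of the 8 genes, no spot was saturated, and all 8 passed the filter on dim probes. Values of different probes were not set against each other, since probes differ in how brightly they bind. The array old_AL 1 stood apart from the others: its 75th percentile was 7662 intensity units against 2634 to 3110 on the other 11, the share of its spots well above background was 71.5%, with 78.8% to 84.1% elsewhere, and it had 4026 uneven spots where the rest had 1 to 208. It correlated with the rest at a median of 0.929, and they with each other and it at 0.971 to 0.994. The first fit therefore used 11 arrays, with 3 in old_AL, and the fit of all 12 is given beside each call of a cathepsin, an inhibitor or another lysosomal gene. None of the calls of cell type markers printed below held in the limma fit of all 12 arrays. The young_AL arrays lay in row 2 of a slide, while old_AL lay in row 1 and old_CR in row 2 of another. An age effect and a slide effect thus cannot be told apart, nor can diet and row. Old_AL and young_AL also differed in row. As a check of the tissue, 12 of 12 sensory neuron markers on the array were well above background on every array. So were 7 of 7 fibroblast and 6 of 6 myelinating Schwann cell markers, and 71.5% to 84.1% of all spots on an array were. The count thus says little about the tissue.

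Old rats fed ad libitum had slightly more Ctsa than young rats and no other cathepsin passed the test, in a fit of 11 arrays with limma and Benjamini-Hochberg adjustment over 20849 genes. Ctsa rose by 12.0%, a log2 difference of 0.16 with an SE of 0.03 and an adjusted p of 0.0358. That is 1 of 8 cathepsins, where 3.24% of all genes tested passed in either direction and 2% passed as higher. At an unadjusted p under 0.05 there were 4 of 8, where 23.1% of all genes were. The median difference of the 8 was 0.11, beside 0.03 over all genes, and 5 of the 8 were above 0 (4 after median centring of each array, 6 in the fit of all 12). On all 12 arrays 0 of 8 passed in limma, where 0.0191% of all genes did, 2 of the 8 had an unadjusted p under 0.05 (6.71% of all genes), and the Ctsa difference was -0.04 with an adjusted p of 0.885.

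The arrays of the 2 age groups did not overlap for 4 of the 8, where 19.6% of all genes did not overlap. Ctsa, Ctsb and Ctsd were higher on every old_AL array of the fit (11.9% of all genes were apart in that direction), and Ctsz was lower on every one (7.67% of all genes). With old_AL 1 included, the groups stayed apart for Ctsd and Ctsz and overlapped for Ctsa and Ctsb.

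Under caloric restriction 0 of 8 cathepsins passed in limma against the old rats fed ad libitum, where 1.06% of all genes passed. At an unadjusted p under 0.05 there were 3, Ctsa, Ctsb and Ctsc, where 26.4% of all genes were. All 8 differences were below 0 in the fit of 11 arrays, with a median of -0.09 beside -0.05 over all genes. That shared sign depended on the scaling: 4 of the 8 were above 0 after median centring of each array, 3 after quantile normalization, and 2 in the fit of all 12 arrays. The arrays of old_CR lay wholly below those of old_AL for 3 of the 8, Ctsa, Ctsb and Ctsc, where 15.3% of all genes were apart in that direction and 23.5% in either. On all 12 arrays 0 of 8 passed in limma, where 0.00478% of all genes did, and 2 had an unadjusted p under 0.05, where 5.96% of all genes had one.

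Old_CR rats had less Ctsz than young rats, and 1 of 8 cathepsins passed. Ctsz fell by 24.5%, a log2 difference of -0.41 with an SE of 0.06 and an adjusted p of 0.0188 in limma. Of all genes 2.41% passed in this comparison, 1.63% as lower. At an unadjusted p under 0.05 there were 2 of 8, beside 18.3% of all genes. The members' median difference was 0.01 beside -0.02 over all genes, with 4 above 0 and 4 below. The groups did not overlap for 2 of the 8, where 15.8% of all genes did not overlap: Ctsa was higher (5.59% of all genes apart in that direction) and Ctsz lower (10.2%). The fit of all 12 arrays, which gives the same difference for Ctsz because it adds no array to either group, had a wider spread: 0 of 8 passed in limma, 0 of 8 had an unadjusted p under 0.05 (2.72% of all genes), the adjusted p of Ctsz was 1.0, and 0.0191% of all genes passed. The 3 comparisons share groups of arrays, so their differences are not independent of each other.

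**Figure D1:**
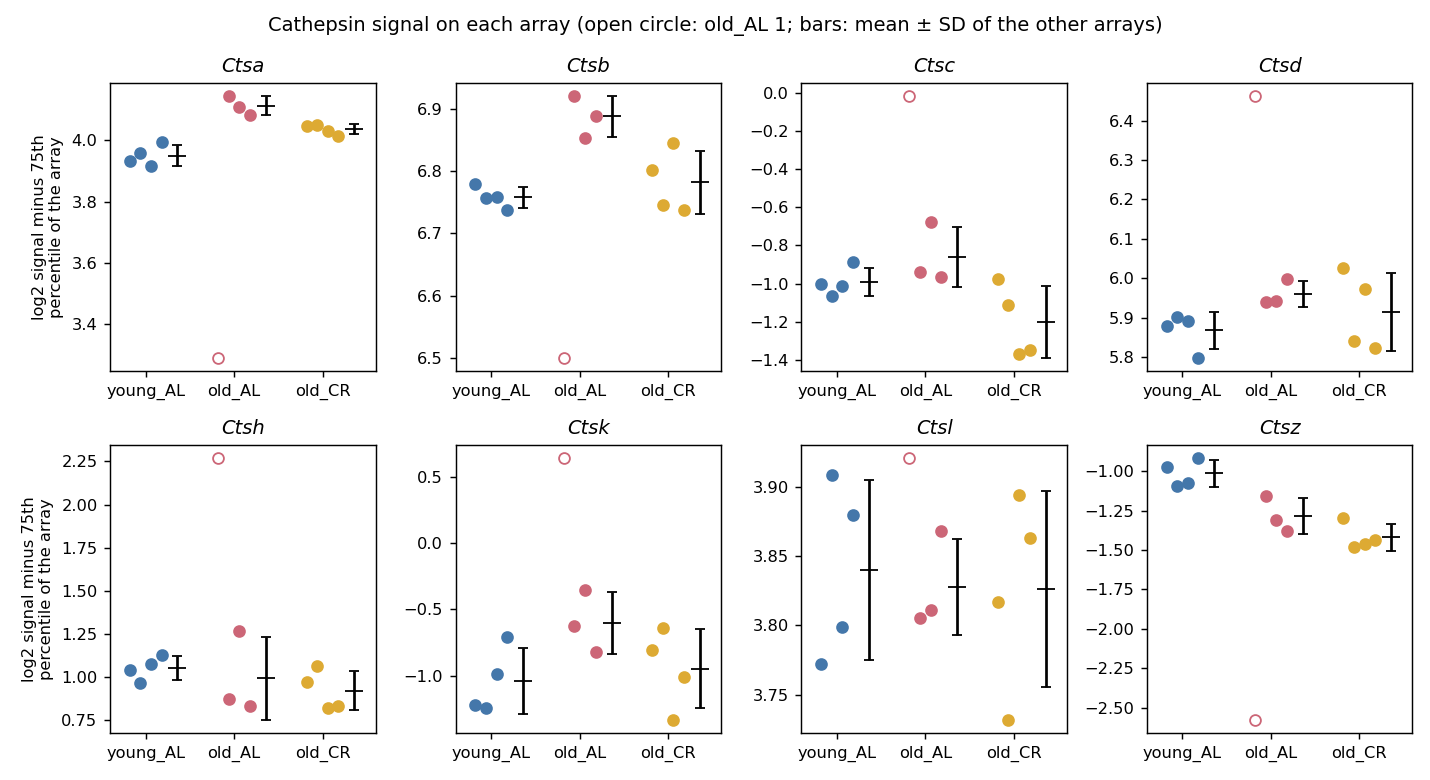
Values of the 8 cathepsins on each array, in log2 units relative to the array's 75th percentile, 1 panel a gene with its own axis; points are arrays in the 3 groups, the open circle is old_AL 1, and bars give the mean ± SD of the other arrays. The 3 groups of Ctsa do not overlap without old_AL 1, and for each of the 8 genes that array lies outside the range of the other 11, by the least for Ctsl.

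Among the cysteine endopeptidases, Ctsb values on the young_AL arrays were 6.78, 6.76, 6.76 and 6.74, those on old_AL 2 to 4 were 6.92, 6.85 and 6.89, and those on old_CR were 6.80, 6.75, 6.84 and 6.74. The old_AL arrays of the fit lay above all the others, and old_CR spread over the young_AL range and past it. The difference of Ctsb between old_AL and young_AL was 0.13 with an SE of 0.04 (adjusted p = 0.0804, limma), and between old_CR and old_AL it was -0.11 (adjusted p = 0.12). Array old_AL 1 read 6.50, the lowest of all. The young_AL 4 value rests on 1 spot, since the other was flagged as an outlier by the scanner software and the pair differed by 6.88 log2 units. With that spot kept, the difference of Ctsb between old_AL and young_AL was 0.99, and it did not pass either.

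Ctsl, the other broadly expressed endopeptidase of this class, had nearly the same level in the 3 groups. Its mean ± SD was 3.84 ± 0.06 (n = 4) in young_AL, 3.83 ± 0.03 (n = 3) in old_AL and 3.83 ± 0.07 (n = 4) in old_CR. The 95% interval of the difference between old_AL and young_AL ran from -0.12 to 0.10, and that between old_CR and old_AL from -0.11 to 0.11. The ranges of the 3 groups overlapped throughout. Array old_AL 1 read 3.92, just above the highest of the other 11, 3.91.

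Ctsk varied widely from array to array. Its values were -1.22, -1.24, -0.98 and -0.71 in young_AL, -0.63, -0.36 and -0.82 on old_AL 2 to 4, and -0.81, -0.64, -1.33 and -1.01 in old_CR. The groups overlapped, with old_AL highest on average. Its difference between old_AL and young_AL was 0.43 with an SE of 0.19 (adjusted p = 0.206, limma), and between old_CR and old_AL -0.34 with the same SE (adjusted p = 0.267). Osteoclast markers that could accompany Ctsk were 4 on the array: Mmp9 and Calcr were not well above background on any array, while Acp5 and Oscar, tested, differed by 0.77 and 0.35 between old_AL and young_AL with adjusted p of 0.0893 and 0.125. The fit of all 12 gave 0.31 for Acp5 and -0.69 for Oscar, whose direction thus turned. The mean of the 7 fibroblast markers, relative to their 11-array means, ranged from -0.08 to 0.41 in young_AL, -0.12 to 0.31 in old_AL and -0.44 to 0.05 in old_CR. Their part in the Ctsk values was not tested.

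Of the cysteine exopeptidases, Ctsc, the dipeptidyl peptidase that activates serine proteases of granulocytes and lymphocytes, had its lowest values under restriction. It read -1.0, -1.07, -1.01 and -0.89 in young_AL, -0.94, -0.68 and -0.96 on old_AL 2 to 4, and -0.98, -1.11, -1.37 and -1.35 in old_CR. The highest old_CR array was just under the lowest old_AL array, and both old groups overlapped young_AL. The difference between old_CR and old_AL was -0.34 with an SE of 0.11 (adjusted p = 0.101, limma), and it passed in 3 of 12 other ways of processing, the 2 with array weights and normexp background correction. Array old_AL 1 read -0.02, above all the others.

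Ctsh, an aminopeptidase, read 0.97 to 1.13 in young_AL, 0.84 to 1.27 on old_AL 2 to 4 and 0.82 to 1.06 in old_CR. Its groups overlapped in every comparison and its differences, -0.06, -0.07 and -0.13 in the order above, had SEs of 0.11, 0.11 and 0.10. On old_AL 1 it read 2.27, which turned the sign of the age difference to 0.26 in the fit of all 12 arrays.

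Ctsz, a carboxypeptidase also called cathepsin X, had the larger of the 2 called differences. It read -0.97, -1.10, -1.07 and -0.91 in young_AL, -1.16, -1.31 and -1.38 on old_AL 2 to 4, and -1.30, -1.48, -1.46 and -1.44 in old_CR. Both old groups lay below every young_AL array, and the old groups overlapped each other. The difference of Ctsz between old_AL and young_AL was -0.27 with an SE of 0.07 (adjusted p = 0.0689, limma), and between old_CR and old_AL -0.14 (adjusted p = 0.237). The age difference was below 0 in all 12 other ways of processing and passed in 5, with the lowest adjusted p at 0.0167 and the highest, on all 12 arrays, at 0.578. Array old_AL 1 read -2.58, lower than all the others.

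The call of Ctsz between old_CR and young_AL held in 7 of 11 fits that left out 1 array each (adjusted p 0.0162 to 0.0618), and was lost without young_AL 1, young_AL 3, old_CR 3 or old_CR 4. Its difference stayed between -0.45 and -0.37 in those fits. Some markers of other cells moved in that comparison too, named here after their values were seen. Of all genes 1.63% fell and 0.787% rose there, and the median difference over all genes was -0.02. Of 6 satellite glia markers 3 fell (Fabp7 by 0.60, Slc1a3 by 0.40 and Sox10 by 0.31) and 2 were above 0, with a median of -0.34. Of 6 myelinating Schwann cell markers 1 fell, Pmp22, by 0.30, and 1 was above 0, with a median of -0.34. Of 7 fibroblast markers 1 fell, Col1a1, by 0.92, and 3 were above 0, with a median of -0.13. The satellite glia mean, relative to the 11-array means, ranged from -0.03 to 0.15 in young_AL and -0.19 to -0.10 in old_CR. The Schwann cell mean ranged from 0.05 to 0.30 in young_AL and -0.33 to 0.05 in old_CR. Of 18 macrophage markers 2 rose, Gpnmb and Lyve1, and none of the list fell. Of 4 adipocyte markers on the array 2 could be tested: Adipoq rose by 3.62, and Fabp4 differed by 1.08 (adjusted p = 0.174, limma). Adipoq was well above background on only 5 of 12 arrays. Its young_AL mean of -9.21 was near that of Mmp9 (-9.18), which was above background on no array, so 3.62 is a distance from the floor. The mean of Adipoq and Fabp4, relative to the 11-array means, ranged from -1.79 to -0.96 in young_AL and 0.24 to 1.95 in old_CR. Of 5 neutrophil markers tested 1 rose, Camp, by 1.69, with a median of 1.36 over the list. Of 12 sensory neuron markers 1 fell, Nefl, by 0.21, and 4 were above 0, with a median of -0.05. The part of these cells in the Ctsz level was not tested.

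**Figure D2:**
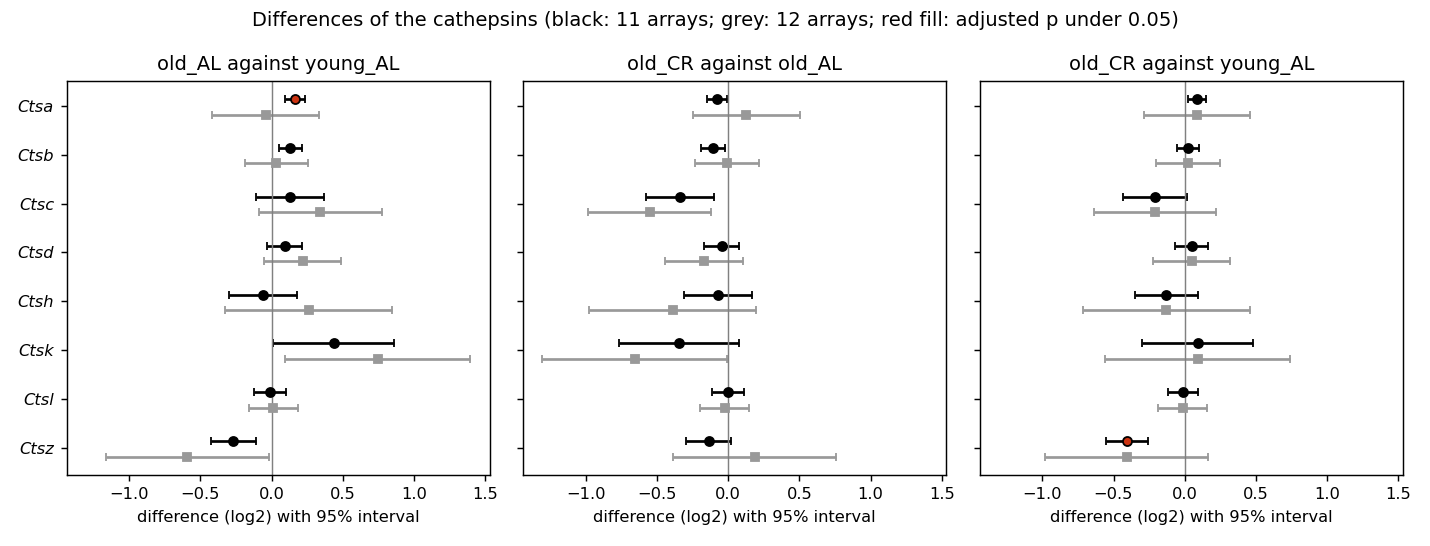
Differences of the 8 cathepsins in the 3 comparisons, in log2 units with 95% intervals; black circles are the fit of 11 arrays, grey squares the fit of all 12, and red fill marks an adjusted p under 0.05. Ctsa in old_AL against young_AL (0.16) and Ctsz in old_CR against young_AL (-0.41) are the red points, and the grey intervals are wider in each row.

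Ctsd, the main aspartic protease of lysosomes, read 5.88, 5.90, 5.89 and 5.80 in young_AL, 5.94, 5.94 and 6.00 on old_AL 2 to 4, and 6.02, 5.84, 5.97 and 5.82 in old_CR. The old_AL arrays lay just above the young_AL arrays, and old_CR spanned both. The age difference of 0.09 had an SE of 0.06 (adjusted p = 0.339, limma), the 95% interval reaching from -0.03 to 0.22. After median centring it was -0.01, so its direction depended on the scaling. On old_AL 1 it read 6.46, above all the others.

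Ctsa, the serine carboxypeptidase, had no overlap among its 3 groups in the fit of 11 arrays. The share of all genes whose 3 groups were all apart was not counted. Ctsa read 3.93, 3.96, 3.91 and 3.99 in young_AL, 4.14, 4.11 and 4.08 on old_AL 2 to 4, and 4.05, 4.05, 4.03 and 4.01 in old_CR. Old_CR thus lay between the other groups, and the SDs were 0.03, 0.03 and 0.02. The difference of Ctsa between old_CR and old_AL was -0.08 (SE 0.03, adjusted p = 0.169, limma), and between old_CR and young_AL 0.09 (SE 0.03, adjusted p = 0.164). Array old_AL 1 read 3.29, below every other array.

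The call of Ctsa between old_AL and young_AL was close to the threshold. It held in 1 of the 11 fits that left out 1 array each, the one without young_AL 4, with adjusted p of 0.0467 to 0.0979 and differences of 0.15 to 0.18. Of 12 other ways of processing it held in 6, and median centring lowered the difference to 0.06. The enzymes that Ctsa protects passed in no comparison: in old_AL against young_AL Neu1, the neuraminidase, differed by 0.03 (95% interval -0.06 to 0.12) and Glb1, the beta-galactosidase, by -0.02 (-0.14 to 0.10).

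**Figure D3:**
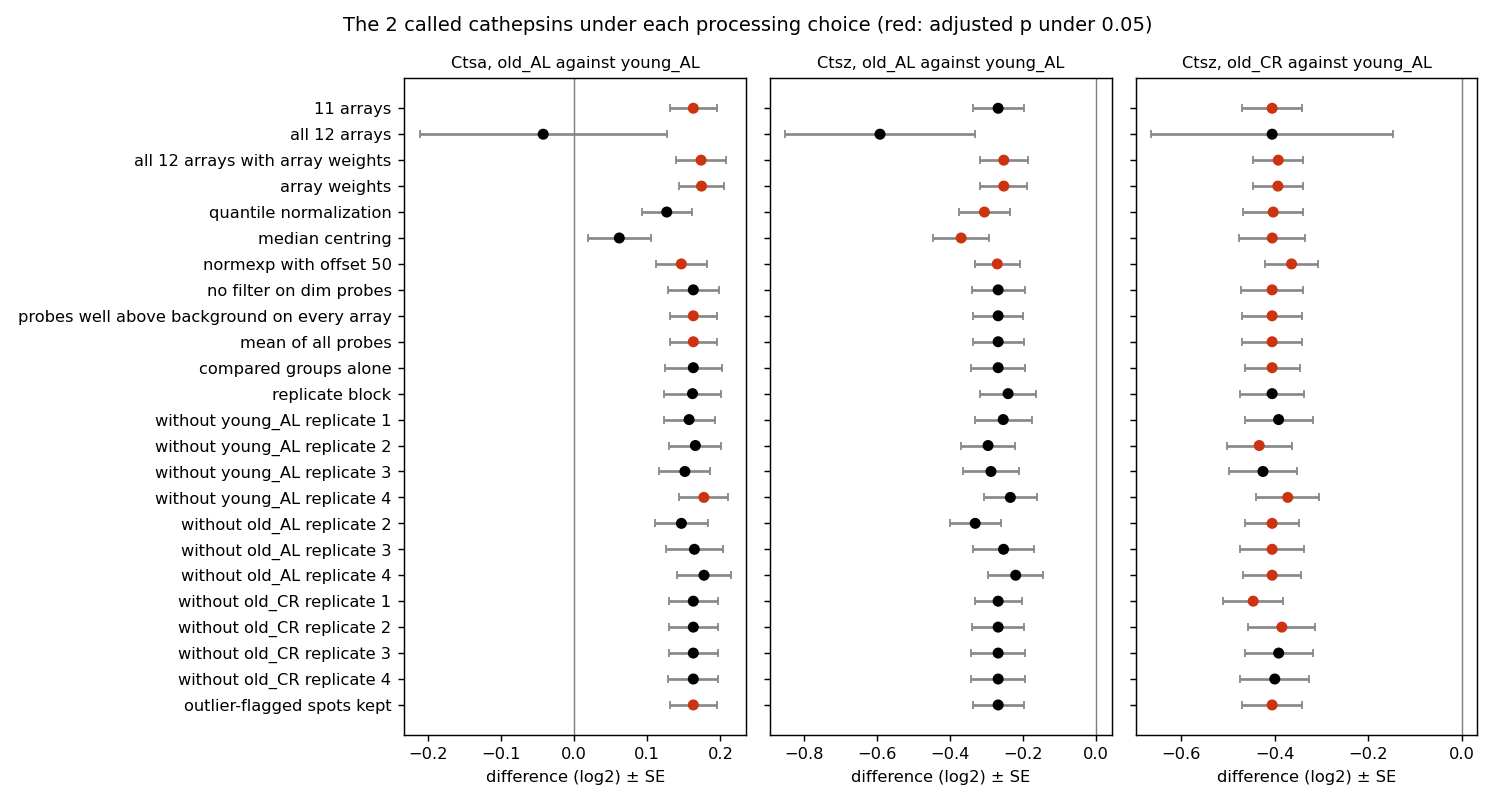
Difference ± SE in log2 units of Ctsa and Ctsz under each way of processing and each fit that left out 1 array; red points have an adjusted p under 0.05. Ctsa is red at 0.16 in the fit of 11 arrays and falls to -0.04 on all 12, while Ctsz stays below 0 in both panels.

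Some macrophage markers rose in old_AL, as Ctsa did. Of the 18 tested 4 rose, Cd163, Gpnmb, Lyve1 and Mrc1, by 1.09 to 1.81 (named after their values were seen). Of all genes 2% rose in this comparison. The median difference of the 18 was 0.85, beside 0.03 over all genes. Their mean, relative to the 11-array means, ranged from -0.76 to -0.21 in young_AL, 0.31 to 0.59 on old_AL 2 to 4 and -0.16 to 0.31 in old_CR, and was -0.15 on old_AL 1. Each of the 18 was well above background on at least 1 array. On all 12 arrays 0 of the 18 passed in limma and their median difference was 0.59, beside -0.06 over all genes. Of 8 neutrophil markers on the array 5 could be tested, and 2 rose, Camp by 2.28 and Ngp by 2.26. Ngp was dim, with a young_AL mean of -7.21, and was well above background on 9 of 12 arrays. Of 12 sensory neuron markers 2 fell, Isl1 by 0.19 and Nefl by 0.31, where 3.24% of all genes passed in either direction. Of those 12 markers 6 were above 0, and their median difference was -0.0039. The part of these cell types in the Ctsa level was not tested.

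Over the 11 arrays the members did not follow a single pattern. Pearson's r, given as a description, was highest between Ctsa and Ctsb (0.75), Ctsb and Ctsd (0.72), Ctsc and Ctsh (0.72) and Ctsc and Ctsk (0.70), and lowest between Ctsa and Ctsz (-0.51). The points share arrays, slides and the differences between groups.

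The other cathepsins on the array included 4 that could be tested, Ctse, Ctsf, Ctss and Ctsw, and 0 of 4 passed in any comparison in limma. Ctss, a cysteine protease of antigen-presenting cells, differed by 1.02 between old_AL and young_AL (adjusted p = 0.0720) and its groups did not overlap. Ctsw, found in cytotoxic lymphocytes, differed by 2.28 (adjusted p = 0.0651) and Ctse, an aspartic protease of immune cells, by 0.78 (adjusted p = 0.191). Ctsw was dim, with a young_AL mean of -7.23, and was well above background on 11 of 12 arrays. Ctsf, a cysteine protease, differed by 0.05. The median of these 4 differences was 0.90, and on all 12 arrays it was 0.50. In old_CR against old_AL the same 4 differed by -0.45, -1.29, -0.17 and 0.05. Of 7 T and NK cell markers tested 1, Cd8a, rose by 2.21 in old_AL against young_AL, where 2% of all genes rose. The part of such cells was not tested. Ctsg, the neutrophil protease, was well above background on 3 arrays and was not tested, and Ctso is not analysed here.

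Inhibitors of cathepsins numbered 8 tested genes, of which 1 rose in old_AL against young_AL, where 2% of all genes rose. Serpina3n, a serine protease inhibitor of acute inflammation, rose by 2.10 (SE 0.46, adjusted p = 0.0476, limma), from a mean of -4.00 to -1.90, with old_CR at -3.63. Its call was lost on all 12 arrays, where the difference was 1.15, and it held in 1 of 11 fits that left out 1 array, the one without old_AL 4. Cst7, a cystatin of immune cells, differed by 0.34 between old_AL and young_AL and by -0.48 between old_CR and old_AL (adjusted p = 0.0509). On all 12 arrays those 2 differences of Cst7 were -0.74 and 0.60. Csta, another cystatin, differed by 0.56 between old_CR and young_AL (adjusted p = 0.194). Cst3, the secreted cystatin C, differed by 0.03, -0.05 and -0.02 in the 3 comparisons.

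Beyond these, the lists of lysosomal genes covered other peptidases, glycan and lipid hydrolases, membrane proteins, subunits of the vacuolar ATPase that acidifies the lysosome, and sorting receptors with their regulators. Over all 78 genes tested besides the 8 cathepsins, with the other cathepsins and the inhibitors counted in, the inhibitor Serpina3n alone rose in old_AL. None fell there, and 2% of all genes rose in old_AL against young_AL. In old_CR against old_AL 0 rose or fell, where 1.06% of all genes passed. In old_CR against young_AL 1 rose and 0 fell, where 0.787% of all genes rose. The gene that rose was Gaa, the acid alpha-glucosidase that breaks down glycogen, by 0.23 (SE 0.05, adjusted p = 0.0358, limma). It did not pass on all 12 arrays (adjusted p = 1.0) and held in 3 of 11 fits that left out 1 array. Median differences of the 78 were 0.04, -0.0044 and 0.04 in the 3 comparisons.

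In the lists where no gene passed, the gene with the smallest p is named, which is an extreme of its list and not its typical value. Scpep1, a serine carboxypeptidase related to Ctsa, was that gene among the 5 other peptidases, with differences of 0.17, -0.08 and 0.09. Gusb, the beta-glucuronidase, differed by 0.20 between old_AL and young_AL (adjusted p = 0.0891), and Gla, the alpha-galactosidase, by 0.15 between old_CR and old_AL. Among the lipid hydrolases and transfer proteins, Smpd1, the acid sphingomyelinase, differed by -0.10 between old_AL and young_AL, and Gm2a, an activator of ganglioside breakdown, by -0.21 between old_CR and old_AL. Laptm5, a lysosomal membrane protein of blood cells, differed by 0.65 between old_AL and young_AL (adjusted p = 0.0935). Igf2r, the large mannose 6-phosphate receptor that carries cathepsin precursors, differed by 0.16 between old_CR and old_AL and by 0.19 between old_CR and young_AL (adjusted p = 0.103 and 0.0681). The 15 vacuolar ATPase subunits tested had differences of -0.16 to 0.11 between old_AL and young_AL, the lowest being that of Atp6v0a2. Tfeb, the regulator of lysosomal genes, had differences of 0.26, -0.40 and -0.14, none of which passed. Neu1, Glb1, Cst3 and Tfeb were picked for their roles after their values were known.

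**Figure D4:**
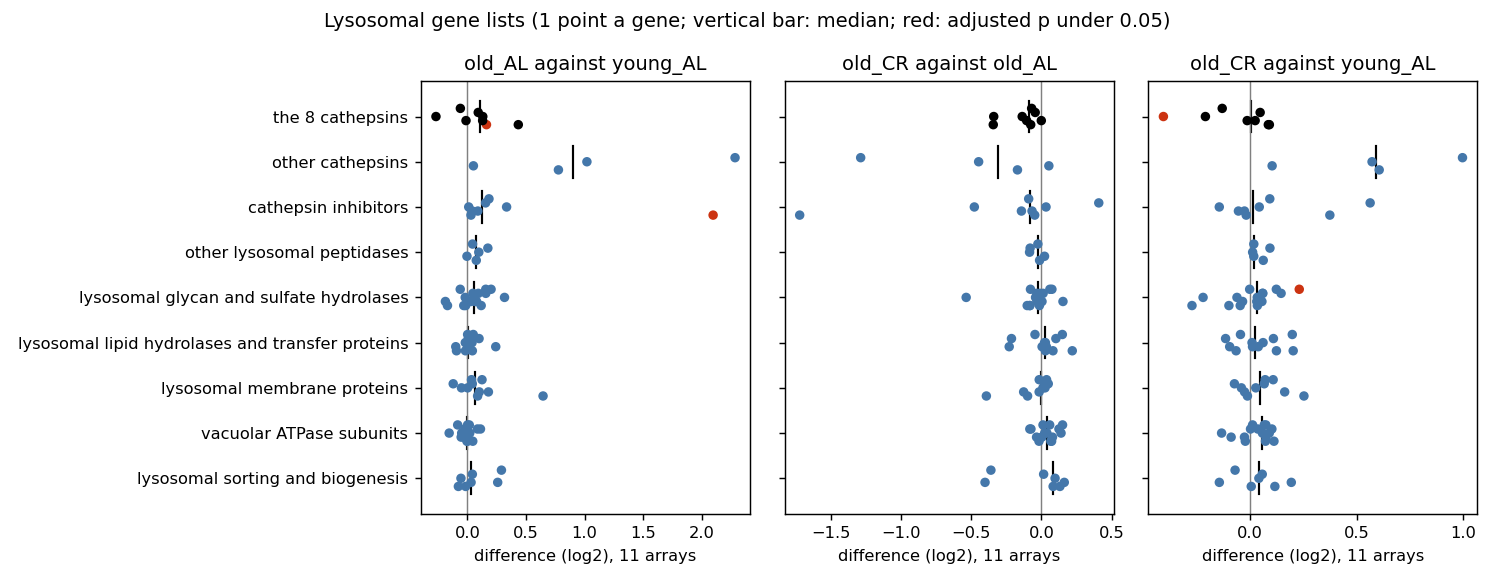
Differences in log2 units of the 8 cathepsins (top row), of the cathepsin inhibitors and of the other lysosomal lists, 3 comparisons, fit of 11 arrays. Each point is a gene, the vertical bar the median of its list, and red points have an adjusted p under 0.05. Most points lie near 0, and Serpina3n at 2.10, Ctsw at 2.28 and Ctss at 1.02 lie to the right in old_AL against young_AL.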

How the data were processed

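Total RNA of 12 L6 dorsal root ganglion samples was labelled with Cy3 and hybridised to 1-colour Agilent arrays, per the labels' protocols. The deposited files give the intensity of each spot, unlogged, from Agilent Feature Extraction 10.7, per the submitters' processing notes; the authors' scanner software had subtracted the background and detrended each array, per the file headers, with no scaling between arrays. The deposited table of the series held the same intensities, with a largest difference of 0.

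Groups were taken from the source names, whose replicate numbers differ from those in the titles. Probes were named by accession through RefSeq's gene table, which gave a symbol to 17998 of 30367 probes. Spots flagged as outliers were set missing, the others of a probe were averaged after log2, and each array's 75th percentile was subtracted. Probes well above background on at least 4 arrays were kept, and the brightest probe stood for a gene. The model was limma 3.58.1 (lmFit and eBayes, R 4.3.3) with a mean per group over all groups, Benjamini-Hochberg adjustment over all genes and a threshold of 0.05. It was tested on simulated data. Array old_AL 1 was left out of the first fit.

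The 8 genes, the lists, the rule for old_AL 1 and the tests were chosen with earlier results of these data known. The text names all 8 cathepsins. From each lysosomal list it names the genes that passed (at most 4) or the one with the smallest p, and for likeness the 3 genes with the highest correlation to each cathepsin. For marker lists the rule was the first 3 genes of each list; the text instead names the markers that passed, all 4 osteoclast markers and both adipocyte markers tested, a choice made after their values were seen. Alternatives were array weights, normexp background correction (offset 50), quantile normalization, centring on the median, other filters, the mean of all probes, the compared groups alone, the replicate number as a block and leaving out each array. Keeping outlier-flagged spots was added after the data were seen. The number of arrays limits the precision.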

Additional observations from a re-analysis of the deposited data

Results flagged for a closer look

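Each of the 24 sets of 4 arrays (8 cathepsins in 3 groups) was checked for an array that stood far from the other 3, by the ratio of the gap to the range against Dixon's 95% critical value. Chance marks about 1 in 20 independent groups, but the sets of a group share its arrays, so that rate does not measure the count here. Of the 24, 4 were marked, each by array old_AL 1, which the first fit had already left out. For Ctsa it was lowest, at 3.29 where the next array read 4.08, a ratio of 0.928. For Ctsb it was lowest, at 6.50 beside 6.85 (0.842). For Ctsd it was highest, at 6.46 beside 6.00 (0.891). For Ctsz it was lowest, at -2.58 beside -1.38 (0.844).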

How the results depend on the processing

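The count of calls and their direction varied with the arrays used, the model and the processing. In the order old_AL against young_AL, then old_CR against old_AL, then old_CR against young_AL, 676, 222 and 503 genes were called. On all 12 arrays they were 4, 1 and 4, on all 12 with array weights 1558, 1981 and 2048, and on the 11 with array weights 1515, 2195 and 1918. Quantile normalization gave 1270 and 618 in the first 2 comparisons, median centring 2968 and 2107, and normexp 3838 and 4732. Without a filter on dim probes 128 and 226 were called in the last 2, and, with the filter asking for every array, 370 in old_CR against old_AL. With the compared groups alone the counts were 27, 0 and 836. Leaving out 1 array each gave 70 to 402, 1 to 924 and 42 to 862. Of the calls in old_AL against young_AL 61.5% were higher, against 28.1% after quantile normalization, 13.1% after median centring, 86.3% with normexp and 72.9% with no filter. In old_CR against old_AL 74.8% were lower, against 42.1%, 13.3%, 89.3% and 87.5% in the same order. Median centring moved the median of all genes by -0.10 and 0.10 in these 2 comparisons.

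Cathepsins called in old_AL against young_AL were 1, and 2 with array weights (on 11 and on 12 arrays) and with normexp, each time Ctsa and Ctsz. After quantile normalization and after median centring the 1 called was Ctsz in place of Ctsa. They were 0 on all 12 arrays, with no filter and with the compared groups alone. In old_CR against old_AL 1, Ctsc, was called with either set of array weights and with normexp, in place of 0. In old_CR against young_AL 0 were called on all 12 arrays in place of 1. Leaving out 1 array each gave 0 to 1, 0 to 0 and 0 to 1.

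The replicate numbers did not pair the arrays: the deviations of same-numbered arrays from their group means had correlations of -0.09 to 0.09 over 10 pairs, with 0 over 0.1, and 4 of 11 arrays were closest to their own number. With the replicate block 20, 1 and 17 genes and 0, 0 and 0 cathepsins were called.

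Of the 24 differences of cathepsins these changed sign. On all 12 arrays the age difference became -0.042 for Ctsa, 0.26 for Ctsh and 0.011 for Ctsl, and the difference between old_CR and old_AL became 0.13 for Ctsa and 0.19 for Ctsz. After median centring Ctsd became -0.0087 with age, and between old_CR and old_AL Ctsa became 0.025, Ctsd 0.057, Ctsh 0.031 and Ctsl 0.10. Quantile normalization made the last difference 0.022 for Ctsb, 0.048 for Ctsd and 0.011 for Ctsl. With array weights on 12 and 11 arrays Ctsh became 0.090 and 0.094 with age, and Ctsl became 0.016 and 0.016 between old_CR and old_AL and 0.00038 and 0.00022 between old_CR and young_AL. Ctsl between old_CR and old_AL was 0.018 with normexp and 0.012 with the replicate block. Leaving out 1 array each, Ctsh ranged from -0.20 to 0.019 with age and from -0.15 to 0.068 between old_CR and old_AL, Ctsk from -0.011 to 0.22 between old_CR and young_AL, and Ctsl from -0.034 to 0.011, -0.024 to 0.030 and -0.036 to 0.018. The cause was not tested.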

Other observations

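The genes whose values over the 11 arrays were most like those of each cathepsin, by Pearson's r and with no test, follow the group differences as well as the spread within groups. For Ctsa they were Cfd (0.967), the complement factor D of fat cells and macrophages, Pof1b (0.962) and Fcna (0.947), a ficolin that starts complement activation. Cfd had group means of -1.23 in young_AL, 0.76 in old_AL and -0.14 in old_CR, the same order as Ctsa. For Ctsb they were the ribosomal protein genes Rps6 (0.972) and Rps14 (0.949), and Sncg (0.946), the gamma-synuclein of sensory neurons.

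Ctsz was most like Epha4 (0.960), a receptor for ephrins, with Ebpl (0.949) and Papola (0.946) next. Epha4 had group means of -4.06, -4.41 and -4.57. Ctsc was most like Hlx (0.919), Smco4 (0.917) and Cdc42ep3 (0.917). Ctsk was most like Kcnk6 (0.930), Ang2 (0.925) and Vsir (0.916), an inhibitory receptor of immune cells. Ctsd was most like Cacna1a (0.882), Ndufa5 (0.875) and Mzb1 (0.869). Ctsh was most like Kdelr3 (0.888), Pon2 (0.880) and Pttg1ip (0.865), and Ctsl was most like Polr2j (0.923), Smim14 (0.912) and Relch (0.901).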
